A study of Homo sapiens with 2 samples.

Results

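The ubiquitin-specific proteases (USP genes) were taken as every gene whose symbol is USP followed by a number, with or without a final X or L, at any level. The input table held 47 such genes of 25105, and 44 of them carried 228 of the 49746 listed m6A peaks. Huh-7, a line grown from a human liver carcinoma and labelled WT, was left untreated and gave 1 library of RNA fragments pulled down with an antibody against N6-methyladenosine (the m6A IP) and 1 library of fragments not pulled down (the input). Both were made from the RNA of the same line after removal of ribosomal RNA, and 1 line is the only model studied. With 1 library of each kind no value has a replicate check and no test between IP and input is possible here. The p-values quoted are the authors' own.

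Ubiquitin-specific proteases are cysteine proteases that cut ubiquitin, or chains of it, from other proteins, and they form the largest family of deubiquitinases. By doing so they spare proteins from the proteasome, edit histone marks, switch signalling complexes and recover free ubiquitin. N6-methyladenosine is a methyl mark placed on adenosines of mRNA by the METTL3 and METTL14 complex, often near the stop codon and in the 3' UTR, and readers of the YTH family bind it and affect the stability and translation of the transcript.

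The authors gave every peak a position, a region, its own log2 fold (IP over input) and p-values, and listed peaks with an unadjusted p of up to 0.05. How the IP was scaled to the input is not known here, so folds rank peaks within this list and carry no outside reference. A log2 fold of 1 is a 2-fold excess of IP over input and a log2 fold of 2 a 4-fold excess. The level of a gene is its FPKM (fragments per kilobase of transcript, scaled to the fragments of the library) in the input library, and only values above 0 are listed. The read depth of both libraries is unknown. A gene was counted as expressed at 1 FPKM or more. All 7 hepatocyte markers checked were listed at 55.1 to 2380 FPKM, among them AFP and ALB. Of 3 leukocyte markers 0 were listed. The 1 endothelial marker listed of 3, PECAM1, stood at 1.33 FPKM, 3 of 3 fibroblast markers were listed at up to 1.46 FPKM, and PLIN1, the 1 adipocyte marker listed of 3, stood at 0.0690 FPKM.

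All 43 expressed USP genes had a peak (exact binomial 95% interval 91.8 to 100%), against 96.2% of the 10548 expressed coding genes, so a listed peak was near universal in both. A peak was counted as supported where it reached 2-fold and its adjusted p was below 0.001. With 1 library of each kind that p holds no spread between replicates, so the word describes the authors' values only. Such a peak was found in 35 of the 43, a share of 81.4% (66.6 to 91.6%), against 67.5% of expressed coding genes. A peak of 4-fold or more was found in 20 of the 43 (46.5%, 31.2 to 62.3%), against 40.7%. Both intervals include the value of the coding genes, so neither share can be told from it at this number of genes. The strongest peak of an expressed USP gene had a median log2 fold of 1.95, with quartiles of 1.36 and 2.83, against 1.76 with quartiles of 1.18 and 2.56 in expressed coding genes with a peak. The median number of listed peaks was 5 for the USP genes and 3 for coding genes. It was 2 and 1 when only peaks with an adjusted p under 0.001 were kept, and 1 for both with those under 1e-06. The USP genes were also longer, with a median genomic span of 77697 nt, against 32798 nt. Their median level was 5.21 FPKM, against 5.58 FPKM. Intervals cover counting error over genes only. Taken peak by peak, 54 of the 228 USP peaks (23.7%) were supported, against 31.5% of all listed peaks, and 26 (11.4%) reached 4-fold, against 19.7%. All listed peaks include those of non-coding genes and of genes at any level, so this background is unlike the one used above. In expressed genes alone, 54 of 225 USP peaks were supported, against 11650 of 39618 peaks of coding genes.

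**Figure D1:**
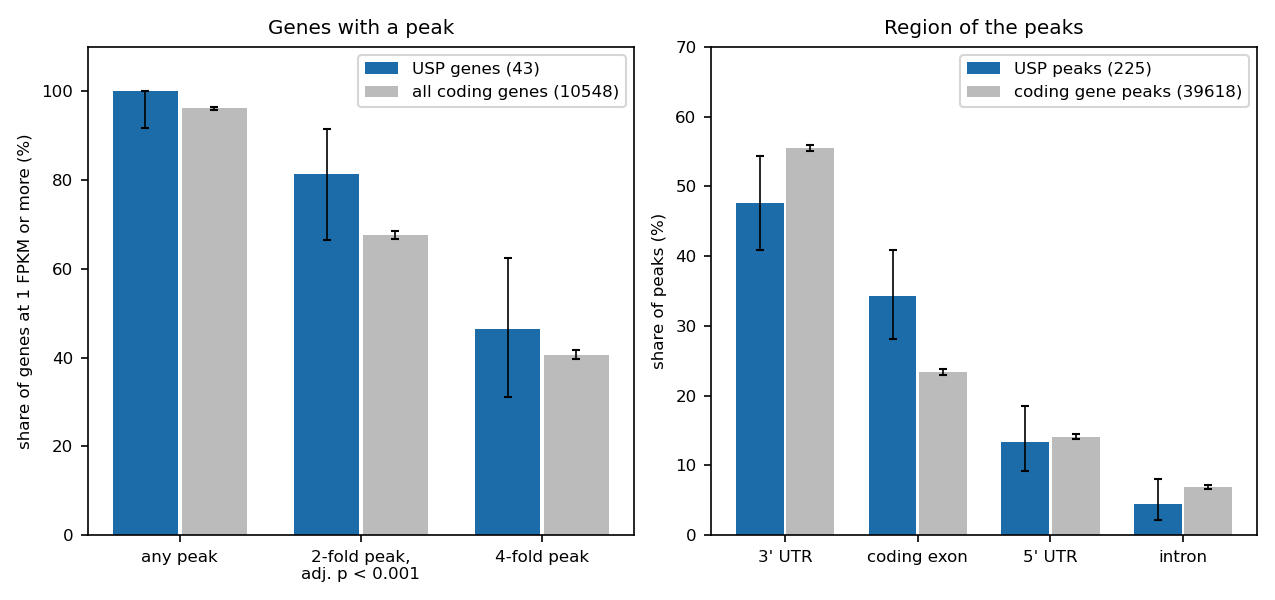
Left, share of USP genes (blue) and of all coding genes (grey) at 1 FPKM or more with any peak, with a supported peak (2-fold, adjusted p below 0.001), and with a 4-fold peak; right, share of their peaks listed in each region. Bars are shares in percent and lines are exact binomial 95% intervals. A supported peak is found in 81.4% of USP genes and 67.5% of coding genes. Coding exons hold 34.2% of USP peaks (29.4% without USP34 and USP47) and 23.4% of coding gene peaks.

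USP53, USP47, USP24, USP10, USP45 and USP38 had the strongest peaks. USP53 encodes a protein of tight junctions whose gene is mutated in an inherited cholestasis, and its 3' UTR peak on chromosome 4 from 119273661 to 119293717 had a log2 fold of 3.83, which is 14.2-fold (adjusted p 7.93e-84, the authors' value). USP47, which acts on DNA polymerase beta in base excision repair, had a coding exon peak of 3.76 on chromosome 11 from 11938356 to 11943499 and 3.20 in the 3' UTR. The 3.20 peak shared bases with an opposite-strand peak of DKK3, so the gene it belongs to is uncertain. USP24 had 3.58 in a 3' UTR peak on chromosome 1 from 55068359 to 55071273. USP10, which binds the stress granule protein G3BP1 and keeps p53 from degradation, had 3.52 on chromosome 16 from 84744759 to 84759420, with a listed adjusted p of 0. USP45, which acts on the excision repair nuclease ERCC1 and XPF, had 3.48 on chromosome 6 from 99439843 to 99462485. USP38 had 3.32 on chromosome 4 from 143213652 to 143215176. Of these 6 genes, USP10 and USP24 stood out by level, at 21.9 and 12.7 FPKM, whereas the other four stood between 2.31 and 5.45 FPKM.

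**Figure D2:**
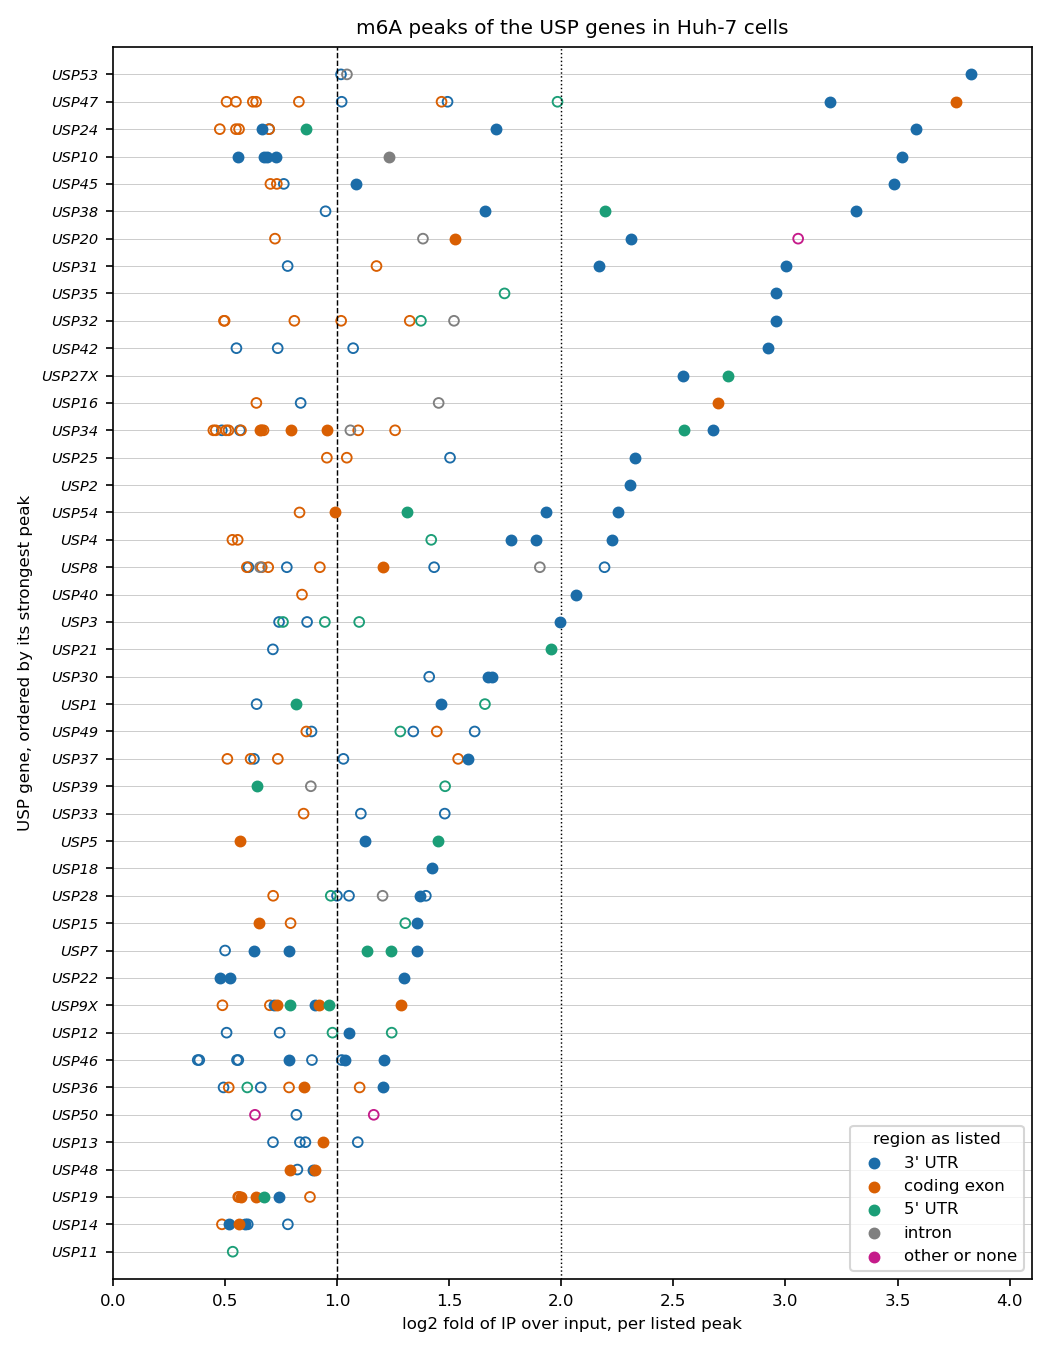
Log2 fold of IP over input (x axis) of each of the 228 peaks in the 44 USP genes with a peak (y axis, ordered by the strongest peak), coloured by listed region; filled points have an adjusted p under 0.001, open points do not, and the dashed and dotted lines mark 2-fold and 4-fold. In USP53 the strongest peak (3.83) stands 2.78 above the next, whereas the 17 peaks of USP34 spread from 0.45 to 2.68.

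A supported 3' UTR peak was listed in 31 members and a supported 5' UTR peak in 7. Neither count was made over coding genes. Of the 7 members with a supported 5' UTR peak, 6 also had a supported 3' UTR peak. The exception was USP21. In the other six, USP5, USP7, USP27X, USP34, USP38 and USP54, the 5' UTR peak reached into the first 50 transcribed bases after a RefSeq start site, so the 30 bases around that site are shown, 5' to 3' on the strand of the gene, with the 10 bases before the start in lower case and the first 20 transcribed bases in capitals. The windows come from RefSeq on GRCh38.p14, and USP7 and USP54 have other annotated starts as well.
USP27X: gagcagggggAGGAGCCGCCGCCAGTGGAG
USP34: agagccgagcGCAGCCCGAGCGCTCTGTTA
USP38: gtttgccggcACTTCAAAATCCGGGTCAAA
USP5: ggtgggagccGCCGTGTGTGGAGAAGCTGC
USP54: ccattcttgtATCACTTGCCCCACAGATAC
USP7: atgcggatgtGACATTTCACGCCGCCGCCA
The window of USP27X spans 49879474 to 49879503 on chromosome X (plus strand), that of USP34 spans 61471068 to 61471097 on chromosome 2 (minus strand) and that of USP38 spans 143184907 to 143184936 on chromosome 4 (plus strand). The window of USP5 spans 6852140 to 6852169 on chromosome 12 (plus strand), that of USP54 spans 73591323 to 73591352 on chromosome 10 (minus strand) and that of USP7 spans 8963887 to 8963916 on chromosome 16 (minus strand). The 5' UTR peak had a log2 fold of 2.74 in USP27X, 2.55 in USP34, 2.20 in USP38, 1.45 in USP5, 1.31 in USP54 and 1.13 in USP7. The letters GGAC, the core of the sequence that the m6A writer favours, were searched on the transcribed strand of the first 50 bases, together with GTCC, which is GGAC on the other strand. In these 6 windows neither was found, and GGAC was found in 9 of the 51 RefSeq windows of 38 listed USP genes (17.6%), against 18.9% of 35116 RefSeq windows of all genes. GTCC was found in 8 of the 51, against 17.6% of all. In USP38 and USP54 none of the 30 printed bases lies in the listed peak, which begins further into the first 50 bases. The peaks of all 6 genes run on past the first 50 bases, and that sequence was not searched.

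Genes whose products act on histones and chromatin covered a wide range. USP22, the ubiquitin protease of the SAGA coactivator complex, was the most abundant of all members at 48.3 FPKM, and its strongest peak, in the 3' UTR, had a log2 fold of 1.30 (adjusted p 1.89e-102). USP27X, a shorter relative that can take the place of USP22 in the same module, stood at 1.94 FPKM. It had 2.74 in the 5' UTR, over the start site shown above, and 2.54 in a peak listed in the 3' UTR, both supported. The peak of 2.54 was 2275 nt long in a gene spanning 3075 nt, with its midpoint at 53.3% of the span. USP51, the other relative in that module, was not listed. USP16, a histone H2A deubiquitinase needed in mitosis, had 2.70 in a coding exon at 3.52 FPKM. USP3, which also acts on H2A, had 1.99 in the 3' UTR, just below 4-fold, in a peak that overlapped one listed for USP3-AS1 on the other strand. USP21 had 1.95 in the 5' UTR (adjusted p 5.33e-14). USP42 had 2.92 in the 3' UTR at 4.13 FPKM, while USP36, its nucleolar relative that stabilises MYC, had 8 peaks at 5.47 FPKM of which the strongest had 1.20. USP49, which removes ubiquitin from H2B, was the least abundant expressed member at 1.05 FPKM, and its 6 peaks, up to 1.61, all had an adjusted p above 0.001. USP44 was not listed. In all, 7 of these 8 expressed genes had a supported peak (47.3 to 99.7%), against 67.5% of coding genes, which the interval includes.

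Among 10 genes of DNA repair, replication and p53 control, 8 had a supported peak (44.4 to 97.5%), against 67.5% of coding genes, and 4, already named, reached 4-fold (12.2 to 73.8%), against 40.7%. Both intervals include the value of coding genes. USP7, which removes ubiquitin from MDM2 and p53, stood at 7.51 FPKM and had 6 peaks, with 1.35 in the 3' UTR and 1.24 and 1.13 in the 5' UTR, all 3 supported. USP1, which acts with WDR48 on FANCD2 and PCNA, stood at 14.1 FPKM. Its highest peak, 1.66 in the 5' UTR, had an adjusted p of 0.00335, and its 1 supported peak had 1.46 in the 3' UTR (adjusted p 1.10e-68). USP37, active in DNA replication, had 1.59, and USP28, which counters the loss of MYC through FBXW7, had 1.40 in its highest peak (adjusted p 0.00781) and 1.37 in a supported one. USP48 had 4 peaks between 0.79 and 0.90, none of them at 2-fold. USP11, a partner of BRCA2, stood at 9.09 FPKM and had a single peak of 0.53 (adjusted p 0.0622), the weakest strongest peak of any member.

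Of 3 genes of ubiquitin recycling, 1 had a supported peak, against 67.5% of coding genes, and the interval for so few genes (0.840 to 90.6%) includes that share. USP5, which takes apart free ubiquitin chains, stood at 29.4 FPKM and was the only one of the 3 with supported peaks, 1.45 in the 5' UTR and 1.12 in the 3' UTR. USP14, the protease that sits on the proteasome and trims chains there, stood at 21.8 FPKM and had 6 peaks of which the strongest had 0.78. USP13, the relative of USP5, stood at 5.79 FPKM, with 5 peaks of up to 1.09 (adjusted p 0.00703). No 4-fold peak was listed for these 3 genes.

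Of 5 expressed genes of endosomes and membrane traffic, 4 reached 4-fold, against 40.7% of coding genes, a share that the interval of so few genes (28.4 to 99.5%) includes. USP32, which acts on the small GTPase RAB7, had 2.96 in the 3' UTR at 5.03 FPKM (adjusted p 9.66e-100). USP20, which acts on the beta-2 adrenergic receptor, had a highest peak of 3.06 with an adjusted p of 0.00635. That peak ran from 129834698 to 129834897 on chromosome 9, was listed with no region, and ended before the RefSeq start site at 129835458. Its supported 3' UTR peak had 2.31. The strongest peak of USP33, the relative of USP20, had 1.48 (adjusted p 0.00933). USP2, which acts on cyclin D1, had 1 peak of 2.31 at 1.13 FPKM (adjusted p 1.53e-13). USP8, which takes ubiquitin off the EGF receptor at endosomes, had 11 peaks at 1.76 FPKM, yet its highest, 2.19, had an adjusted p of 0.0192, and its 1 supported peak had 1.20. USP6, an oncogene of bone and soft tissue lesions that arose by fusion with a copy of USP32, was listed at 0.00795 FPKM with no peak, and reads of such near copies cannot always be told apart.

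All 9 expressed signalling genes had a supported peak (66.4 to 100%), against 67.5% of coding genes, which the interval includes. USP34, which acts on axin in the Wnt pathway, had the most peaks of any member, 17 at 11.1 FPKM, of which 12 lay in coding exons. Its supported peaks stood at the ends, with 2.68 in the 3' UTR (adjusted p 6.15e-177) and 2.55 in the 5' UTR (adjusted p 2.61e-14), and the 3' UTR peak overlapped one listed on the other strand for AHSA2P. USP31 had 3.00 and 2.17, both in the 3' UTR, at 3.01 FPKM. USP25, which acts on TRAF3, had 2.33 and USP4, a regulator of the TGF-beta receptor, 2.23, whereas USP15, which acts on SMADs, had 1.36. Another supported USP4 peak, of 1.78, was 2642 nt long, and 2620 nt of it lay past the listed end of the gene. The gene that this peak belongs to is therefore uncertain. USP9X, which stabilises MCL1, had 9 peaks at 12.8 FPKM, none above 1.29. USP12 and USP46, which both work with WDR48, stood at 8.51 and 13.4 FPKM and had strongest peaks of 1.24 (adjusted p 0.0499) and 1.21 (adjusted p 0.000541). USP18, the protease that removes the interferon-induced modifier ISG15, stood at 7.09 FPKM with 1 peak of 1.43 (adjusted p 0.000181). USP41, a near copy of USP18, was listed at 0.0607 FPKM with no peak, and its level is uncertain for that reason.

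The remaining members differed among themselves as well. USP35 had 2.96 in the 3' UTR at 1.87 FPKM. USP30, which opposes parkin on the outer mitochondrial membrane, had 1.69 and 1.67, both in the 3' UTR and both supported. USP19, an enzyme anchored in the endoplasmic reticulum, had 7 peaks at 16.7 FPKM and none of 2-fold. USP39, USP53 and USP54 have long been classed as lacking protease activity. USP39, a splicing factor of the tri-snRNP, stood at 17.6 FPKM, and its highest peak, 1.48 in the 5' UTR, had an adjusted p of 0.00346 and overlapped opposite-strand peaks of C2orf68 and TMEM150A. USP54 had 3 supported peaks, 2.25 and 1.93 in the 3' UTR and 1.31 in the 5' UTR, and the 1.93 peak overlapped one of PPP3CB-AS1 on the other strand. USP40 had 2.07 in the 3' UTR (adjusted p 4.61e-130). USP43 was listed at 0.0277 FPKM with no peak. USP50, listed at 0.0924 FPKM, was the 1 member below 1 FPKM with peaks. Its 3 peaks, of up to 1.16, all overlapped opposite-strand peaks of USP8, which stood at 1.76 FPKM, and whether their reads came from USP8 was not tested. USP26 and USP29 were not listed. Without a supported peak were 8 expressed members, USP11, USP13, USP14, USP19, USP33, USP39, USP48 and USP49.

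By listed region, 107 of the 225 peaks in expressed USP genes lay in the 3' UTR, a share of 47.6% (40.9 to 54.3%), against 55.5% of the peaks of expressed coding genes. Coding exons held 77, or 34.2% (28.0 to 40.8%), against 23.4%. The interval of the coding exon share lies above the value of coding genes, and that of the 3' UTR share lies below it. Among supported peaks the direction was the other way. Coding exons held 9.26% of the 54 supported USP peaks (3.08 to 20.3%), against 16.7% of those of coding genes, and the 3' UTR held 74.1% (60.3 to 85.0%), against 63.1%. Both of these intervals include the value of coding genes. USP34 and USP47 carried 12 and 7 of the coding exon peaks. Without these 2 genes the shares were 29.4% in coding exons and 51.3% in the 3' UTR. Both are nearer to the values of coding genes, 23.4% and 55.5%. No interval was computed without these 2 genes, so it is not known whether the differences from coding genes hold without them. The 5' UTR held 30 peaks (13.3%, 9.18 to 18.5%), against 14.1%, and introns 10 (4.44%, 2.15 to 8.02%), against 6.90%. Listed peaks of USP genes had a median of 1207.5 nt from first to last base, against 600 nt over all listed peaks, which include those of non-coding genes. The longest, in USP32, ran over 86900 nt of genome. Within a region of expressed genes the difference was not always in that direction. The median was 2583 nt in coding exons, against 1928.5 nt in coding genes, and 588 against 525 nt in the 3' UTR. In introns it was 362.5 against 225 nt, but in the 5' UTR 1023 against 1422 nt. Peaks of 1 gene share their transcript, so the intervals of the shares cover counting error only. The coding exon peaks of USP genes were mostly weak, with a median log2 fold of 0.71 and 5 of 77 supported (6.49%), against 0.81 and 21.1% in coding genes. In the 3' UTR 40 of 107 were supported (37.4%), against 33.4%. The strongest peak of an expressed USP gene lay in the 3' UTR in 30 of 43 genes, in the 5' UTR in 7, in a coding exon in 5 and in no listed region in 1. The same count was not made over coding genes, so it shows no trait particular to USP genes.

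The listed region follows 1 transcript of the gene, which need not be the full-length one. Of the 108 USP peaks listed in a 3' UTR, 88 had their midpoint in the last 20% of the genomic span of the gene and 20 lay before it. For 5 of the 30 members whose strongest peak was listed in a 3' UTR, USP4, USP10, USP28, USP38 and USP45, that peak lay before the last 20%. The USP10 peak had its midpoint at 65.2% of the span and that of USP4 at 39.3%, where a longer transcript can have other exons. The strongest peak of USP53 had its midpoint at 85.7% but ran over 20057 nt of genome. Its 3' UTR label follows another transcript than the labels of the other USP53 peaks. The same was true of the 3' UTR labels of the strongest peaks of USP24 and USP33, among others. Over all USP peaks, 49.1% of midpoints fell in the last 20% of the span, against 48.3% in coding genes, and 13.6% fell in the first 20%, against 13.4%.

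**Figure D3:**
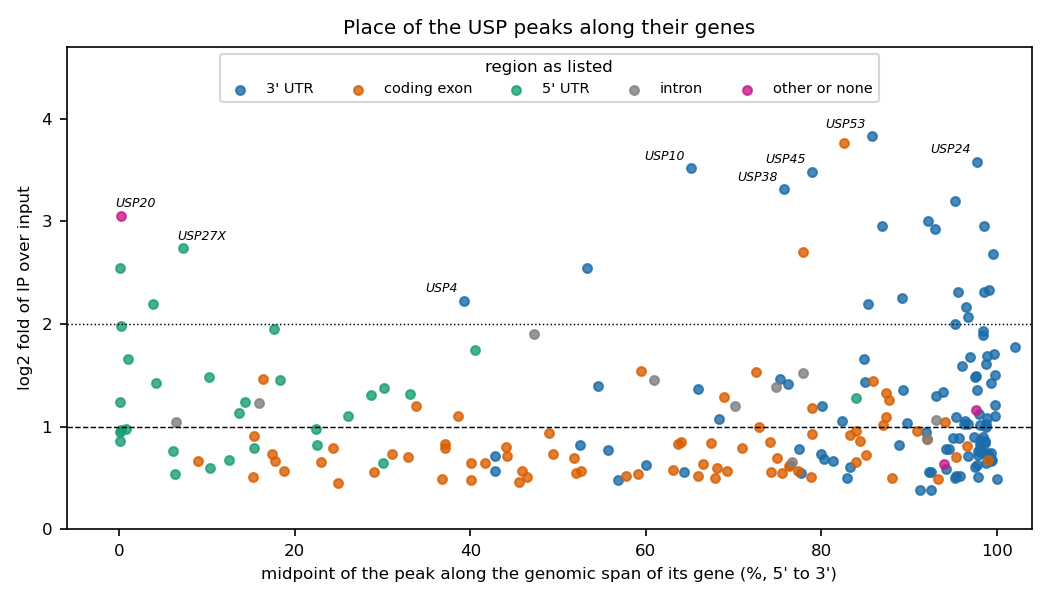
Log2 fold of IP over input (y axis) of the 228 USP peaks against the midpoint of each peak along the genomic span of its gene in percent (x axis, 5' to 3'), coloured by listed region; the dashed and dotted lines mark 2-fold and 4-fold. Most 3' UTR peaks gather in the last 20% of the span, the peaks of USP10 (65.2%) and USP4 (39.3%) lie before it, and coding exon peaks stay mostly under 2-fold.

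Some members had a dominant peak while others had peaks of like height. Of 40 expressed members with several peaks, 11 had a strongest peak at least 1 above the next on the log2 scale, a share of 27.5%, against 27.5% of the coding genes. The gap was 2.78 in USP53, 2.40 in USP45, 2.29 in USP10, 1.87 in USP24 and 1.85 in USP42. It was 0.13 in USP34 and 0.02 in USP30. The median gap was 0.33 in USP genes and 0.50 in coding genes.

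Members of low level tended to have the stronger peaks, as did coding genes. Across the 43 expressed USP genes the level and the strongest log2 fold had a Spearman rho of -0.42, and across 10150 expressed coding genes with a peak rho was -0.33. Both measures share the input library, and the genes share both libraries. From 1 to under 5 FPKM, 18 of 20 USP genes had a supported peak, against 73.6% of coding genes, and 13 had a 4-fold peak, against 50.5%. From 5 to under 10 FPKM, 9 of 12 had a supported peak, against 68.9%, and 4 a 4-fold one, against 39.6%. From 10 to under 50 FPKM, 8 of 11 had a supported peak, against 59.8%, and 3 a 4-fold one, against 27.9%. The 3 were USP10, USP24 and USP34. The USP share with a 4-fold peak was thus above that of coding genes in the lowest band alone, where its interval (40.8 to 84.6%) still includes 50.5%, and it came to 33.3% and 27.3% in the bands above. Longer members had more peaks (Spearman rho 0.57 between genomic span and number of peaks over the 43, against 0.47 over coding genes). A supported peak was found in 11 of 14 USP genes with a span under 50000 nt (78.6%), against 63.9% of coding genes of that span. It was found in 14 of 16 from 50000 to under 100000 nt (87.5%), against 70.1%, and in 10 of 13 longer ones (76.9%), against 77.3%.

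**Figure D4:**
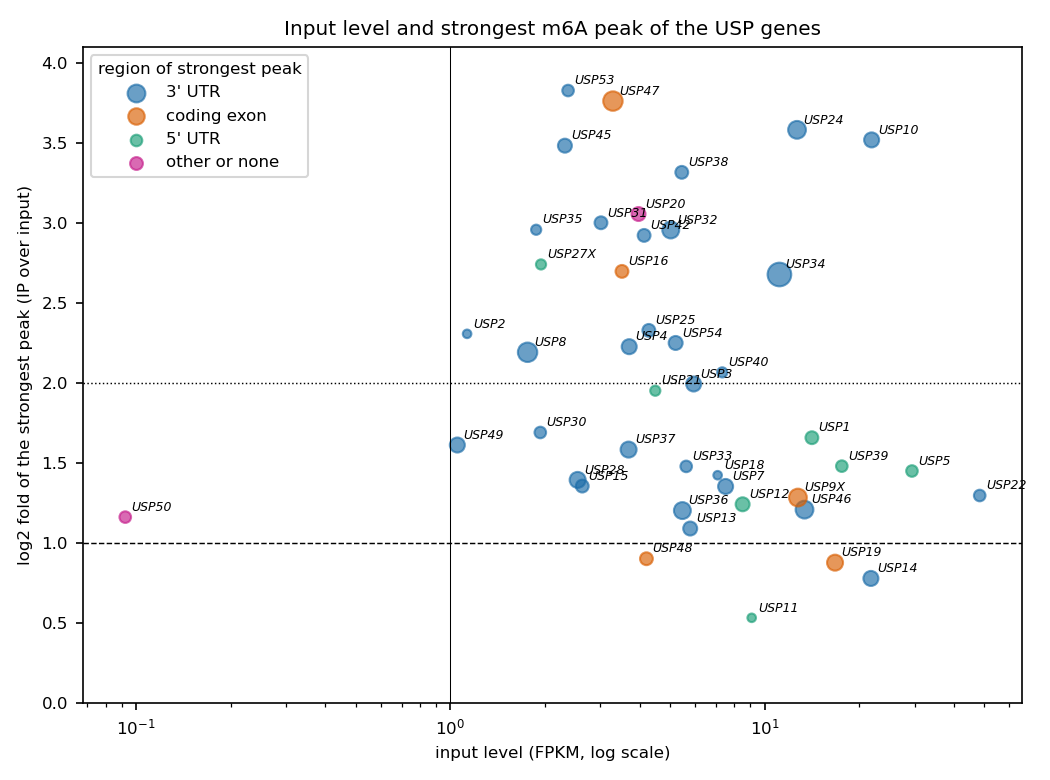
Log2 fold of the strongest peak (y axis, IP over input) against the input level in FPKM (x axis, log scale) for the 44 USP genes with a peak, coloured by the region of that peak, with point area growing with the number of peaks; the vertical line marks 1 FPKM and the dashed and dotted lines mark 2-fold and 4-fold. USP10 (21.9 FPKM) and USP24 (12.7 FPKM) keep strong peaks at high level, while USP22, at 48.3 FPKM, has 1.30.

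The strongest peaks of close relatives are given side by side. Each fold is listed with no error, so the differences cannot be tested, and unrelated genes were not paired for comparison. USP24 had 3.58 and USP9X 1.29 at nearly the same level, 12.7 and 12.8 FPKM. USP42 had 2.92 and USP36 1.20 at 4.13 and 5.47 FPKM. USP20 had 3.06, or 2.31 in its supported peak, and USP33 1.48, at 3.97 and 5.63 FPKM. USP25 had 2.33 and USP28 1.40, at 4.28 and 2.54 FPKM. In the USP4, USP15 and USP11 group the values were 2.23, 1.36 and 0.53, at 3.71, 2.63 and 9.09 FPKM. USP12 (1.24, or 1.05 in its supported peak) and USP46 (1.21) lay close. USP5 had 1.45 and USP13, which had no supported peak, 1.09. USP2, USP21 and USP8 had 2.31, 1.95 and 2.19, but the supported peak of USP8 had 1.20. USP45 (3.48) and USP16 (2.70) were both above 4-fold. USP38 (3.32) and USP35 (2.96) were both high, and USP53 (3.83) was above USP54 (2.25).

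Deubiquitinases of other families covered a like range. Of 35 genes in the UCH, OTU, Josephin, JAMM and MINDY or ZUP1 families, 32 were listed and 28 were expressed. All 28 had a peak. A supported one was found in 18 (64.3%, 44.1 to 81.4%), against 67.5% of coding genes, and a 4-fold one in 13 (46.4%, 27.5 to 66.1%), against 40.7%. The median strongest log2 fold was 1.94, against 1.76. The interval for supported peaks overlapped that of the USP genes. Of the 12 expressed OTU genes, 10 had a supported peak (51.6 to 97.9%), against 67.5% of coding genes, and 9 a 4-fold peak (42.8 to 94.5%), against 40.7%. Their median strongest log2 fold was 2.78, against 1.76. Several families were viewed, and the lists were chosen with earlier results of these data known, so these intervals are no test of the OTU family. VCPIP1 (3.42), TNFAIP3 (3.38), which restrains NF-kB, and ZRANB1 (3.24) were highest there, and OTUB1 (0.56) was lowest. Of the 4 UCH genes 1 had a supported peak, in UCHL5 (1.33), and UCHL1, at 112 FPKM, had 0.88. Of the 6 expressed JAMM genes 3 had a supported peak, of the 4 expressed MINDY and ZUP1 genes 3, and of the 2 expressed Josephin genes 1. USPL1, which has a USP fold but acts on SUMO, had 3.01 and PAN2, a deadenylase subunit with an inactive USP fold, had 2.15. CYLD, a USP-fold enzyme outside the naming rule, stood at 0.828 FPKM with 2.94 (adjusted p 0.00871).

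All 12 partner genes of USP enzymes had a supported peak (exact interval 73.5 to 100%), against 67.5% of coding genes. Their median strongest log2 fold was 2.03, against 1.76. The partners were chosen with earlier results of these data known, so the interval is no test of partners as a class. ATXN7L3, the adaptor that activates USP22 and its relatives in SAGA, had the highest, 4.22 at 10.2 FPKM, and ATXN7L3B had 2.68 and ENY2, another subunit of the module, 2.13. WDR20, an activator of USP12 and USP46, had 3.35, whereas WDR48 had 1.84 and DMWD 1.92. STAM2 had the lowest, 1.20 (adjusted p 0.000211), and G3BP1, the partner of USP10, had 1.28 in its strongest peak (adjusted p 0.0112). UBB, which encodes ubiquitin itself, stood at 244.5 FPKM and had no supported peak, with a strongest log2 fold of 1.02, and RPS27A, which encodes ubiquitin fused to a ribosomal protein, had none either (0.63). The ubiquitin-activating enzymes UBA1 (2.02) and UBA6 (3.27) each had a supported peak.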

How the data were processed

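Per the labels' protocols, RNA depleted of ribosomal RNA was fragmented, incubated with an m6A antibody and made into strand-marked paired-end libraries. Among the tools in the submitters' processing notes are HISAT2, StringTie, HOMER, edgeR, fastp and FastQC. Their roles, their settings and the build were not given in the sources used here. Per the file headers, the deposited peak table gives a log2 fold, p-value and adjusted p-value per peak, and the deposited gene table gives the input FPKM. How the authors scaled IP to input, and whether peaks were assigned by strand, was likewise not given. The protocol text names adipose RNA, but both titles name Huh-7, which is followed.

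Peaks were joined to genes by Ensembl ID. Listed peak starts equalled the gene start minus 1 in 3007 peaks and the gene start in 0, while 1791 ends equalled the gene end, so starts were read as counting from 0 and 1 was added to each. The listed length of all 49746 peaks equals end minus start plus 1, which would fit starts counted from 1, so printed peak starts and lengths could be off by 1 nt. Gene spans overlapped those of GRCh38.p14 for all 46 members matched by symbol. Coding genes were those of that biotype in RefSeq by symbol or synonym, which gave 77.7% of listed genes a biotype. Each gene was given its strongest peak by log2 fold. Shares carry exact (Clopper-Pearson) 95% intervals. Python 3.11.15, pandas 2.3.3 and SciPy 1.17.1 were used, and the summaries were checked on simulated tables. Members and lists were chosen with earlier results of these data known. All members are described, by role, with full values by a rule of strongest and weakest peaks, level, number of peaks and paralog groups; other genes were named after their values were seen. Some genes of the lists are not reported here.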

Additional observations from a re-analysis of the deposited data

How the results depend on the processing

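With 1 library of each kind, no replicate could be left out. No paired analysis was possible because the labels name 1 IP and 1 input library. Alternatives changed the minimum level, the peaks admitted and the summary of each gene. With peaks of adjusted p under 1e-06 alone, 74.4% of expressed USP genes had a peak (67.8% of coding genes), the median number of peaks was 1 (1 in coding genes) and the 3' UTR share of peaks was 69.8%. With peaks of adjusted p under 0.001 these were 93.0% (82.1% of coding genes), 2 (1 in coding genes) and 61.5%. At 5 FPKM or more, 30.4% of USP genes had a 4-fold peak, against 32.4% of coding genes. The supported share at that level was 73.9%, against 62.4%. With the median peak of each gene in place of the strongest, the median log2 fold was 1.04. Of the strongest peaks of expressed USP genes, 69.8% lay in the 3' UTR, against the 47.6% over all their peaks. The share for the strongest peaks of coding genes was not computed. In all, 8 alternative values lay outside the interval of the reported one and 33 stayed within it. Among the latter, the supported share with peaks of adjusted p under 0.001 alone could not change, because that limit is part of its definition. No error is listed for any fold, and weak peaks of low genes are limited by an unknown depth.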
